A study of Mus musculus with 23 samples.

Results

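Il6, Il12b, Ebi3 and Il27 encode chains of cytokines of the IL-6 and IL-12 families, which macrophages secrete after they sense bacteria. The 4 genes were taken by name from the 6397 genes with deposited values, as cytokines of the secondary response to LPS, the wave of genes that follows the immediate early genes. LPS, from the cell envelope of Gram-negative bacteria, activates macrophages through the receptor Tlr4. BMDMs were grown from bone marrow of C57BL/6 mice for 7 days in medium supplemented with L929 cell supernatant, and were collected untreated (0 h) or after 1, 2, 4 or 6 h with 100 ng/ml LPS. Each of the 5 time points has 2 replicates, A and B. The p-values measure the spread between replicate cultures only, pooled over the 5 time points and moderated across genes. Each culture was split into 1 RNA-seq library of total RNA depleted of rRNA and 1 Ribo-seq library of ribosome-protected fragments (RPFs). CLIP-seq of the RNA-binding protein Zfp36 was done at 4 h of LPS in BMDMs of mice that carry a V5 tag on both copies of the endogenous Zfp36 gene, with 2 CLIP-seq libraries and 1 input library, so that all CLIP-seq cells carry the tag and none is untreated.

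IL-6 is a single-chain cytokine that signals through the receptor chains Il6ra and Il6st and drives fever, the acute-phase response and the differentiation of lymphocytes. The IL-12 family is made of pairs of an alpha chain, related to IL-6, and a beta chain, related to soluble cytokine receptors. Il12b encodes the beta chain p40, which pairs with p35 in IL-12 and with p19 in IL-23. Ebi3 encodes the beta chain that pairs with the alpha chain p28, encoded by Il27, in IL-27, and that pairs with p35 in IL-35. The receptors of these cytokines signal through JAK kinases and STAT transcription factors. The genes of the other chains, Il12a (p35) and Il23a (p19), were not analysed here.

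The values are RPKM, reads scaled to the length of the coding sequence and the depth of the library, and the apparent TE is the RPF RPKM of a culture over its RNA RPKM. The steps of the low values gave back the number of reads behind them, as whole numbers within 0.06 of a read in all 20 libraries for 6100 genes, the 4 cytokine genes included. The reads behind the scale numbered 12229308 to 31824563 per RNA-seq library and 551831 to 3495247 per Ribo-seq library, with the lowest Ribo-seq depth at 6 h replicate A. All 10 macrophage markers looked up were in the table, with a summed RNA level of 8347 to 14042 RPKM per library. Of the markers of dendritic cells, lymphocytes, NK cells, neutrophils, fibroblasts and erythroid cells, Col1a1 alone was in the table, at 0.362 to 1.36 RPKM of RNA, and the others were not analysed here. In these bulk samples, fewer cells that express a gene and less RNA per cell cannot be told apart.

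The promoters of 3 of the 4 genes are printed because the genes rose together. The sequences are from RefSeq on GRCm38.p6, 5′ to 3′ on the plus strand, and run from 250 bases before to 50 bases after the annotated start. Capitals mark matches, on either strand, to the NF-kB consensus, to AP-1 (TGANTCA), to C/EBP (TTGCNNAA) and to the core of the cAMP response element (TGACGT). NF-kB, AP-1 and C/EBP factors are induced or activated by Tlr4 signalling. The Il6 promoter lies at chr5:30012864-30013163, that of Il12b at chr11:44399813-44400112, and that of Ebi3 at chr17:55952373-55952672.
Il6: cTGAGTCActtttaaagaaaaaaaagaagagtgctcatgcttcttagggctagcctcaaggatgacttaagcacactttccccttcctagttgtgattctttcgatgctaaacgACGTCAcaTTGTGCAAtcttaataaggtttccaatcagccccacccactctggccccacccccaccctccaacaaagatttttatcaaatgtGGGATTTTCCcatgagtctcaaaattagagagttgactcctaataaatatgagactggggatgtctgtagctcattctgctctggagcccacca
Il12b: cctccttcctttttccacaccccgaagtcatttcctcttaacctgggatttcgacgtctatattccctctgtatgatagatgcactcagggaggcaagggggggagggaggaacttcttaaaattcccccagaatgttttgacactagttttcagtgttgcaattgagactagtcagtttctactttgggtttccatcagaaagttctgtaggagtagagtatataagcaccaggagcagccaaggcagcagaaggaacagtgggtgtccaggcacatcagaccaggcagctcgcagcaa
Ebi3: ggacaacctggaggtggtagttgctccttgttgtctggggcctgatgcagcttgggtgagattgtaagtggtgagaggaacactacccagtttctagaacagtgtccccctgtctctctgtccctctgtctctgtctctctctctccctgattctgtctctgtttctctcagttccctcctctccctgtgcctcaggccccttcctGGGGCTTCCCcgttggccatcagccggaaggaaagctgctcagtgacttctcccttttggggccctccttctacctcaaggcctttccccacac

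The Il6 window held 1 match to each of the 4 motifs. Its NF-kB match lay 44 to 35 bases before the start, its C/EBP match 128 to 121 bases before it, its cAMP response element match 136 to 131 bases before it and its AP-1 match 249 to 243 bases before it, with no overlap between them. The Ebi3 window held an NF-kB match at the same distance, 44 to 35 bases before the start, and no match to the other 3 motifs. None of these letters was found in the Il12b window. Of 32851 promoters of the same length, 4.51% held the NF-kB consensus, 7.81% AP-1, 10.8% C/EBP and 7.51% the cAMP response element core. A match describes the letters only.

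Resting BMDMs had very little RNA of Il6, Il12b and Il27, whereas Ebi3 was already expressed. At 0 h the Il6 RNA level was 0.668 and 1 RPKM in replicates A and B, from 4 and 10 reads. Il12b had 0.41 and 0.345 RPKM from 5 and 7 reads. Il27 had 1.53 and 0.988 RPKM from 13 and 14 reads. These levels lie in the lowest 0.5% of the 6397 genes in every 0 h library, and every gene of the table whose reads were recovered has at least 1 read in each library. Ebi3, in contrast, had 17.2 and 10.9 RPKM from 143 and 150 reads, above 41.2% and 24.9% of the genes.

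RPFs at 0 h gave the same order with an exception for Il6. Il12b had 0.774 and 0.859 RPKM from 1 and 2 reads, and Il27 1.11 and 1.85 RPKM from 1 and 3 reads. Il6 had 6.31 and 13.1 RPKM from 4 and 15 reads, with exact Poisson intervals at 95% of 1.72 to 16.2 and 7.35 to 21.6 RPKM, which cover counting error only, as do all intervals given here. Ebi3 had 62.6 and 75.1 RPKM from 55 and 119 reads, and lay above 67.1% and 73.1% of the genes.

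**Figure D1:**
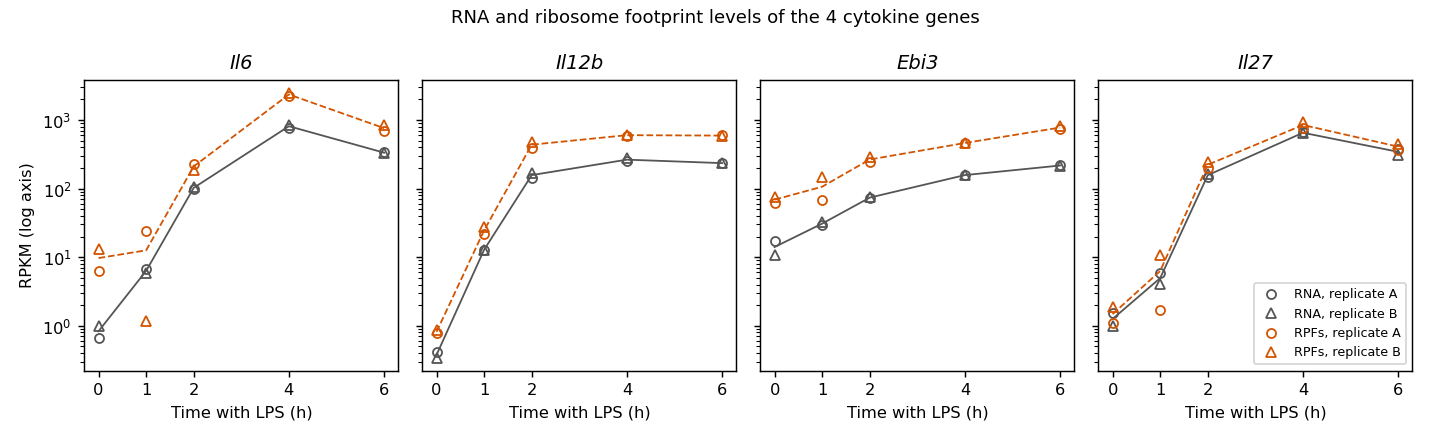
RNA and RPF levels (RPKM, log axis) of Il6, Il12b, Ebi3 and Il27 against hours with LPS. Circles and triangles are the libraries of replicates A and B and lines join the means of the 2 libraries. Il6 and Il27 peak at 4 h, Il12b changes little from 4 to 6 h, and Ebi3 starts from 10.9 and 17.2 RPKM of RNA and is highest at 6 h.

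After 1 h of LPS, the RNA of all 4 genes had risen. Il12b reached 12.9 and 12.8 RPKM, a log2 change of 3.33 ± 0.11 (SE) with an adjusted p of 1.43e-12. Il6 reached 6.83 and 5.81 RPKM (2.00 ± 0.12, adjusted p 2.06e-09), and Il27 reached 5.83 and 4.08 RPKM (1.4 ± 0.15, adjusted p 4.25e-06). Ebi3 reached 29.3 and 32.4 RPKM (1.12 ± 0.15, adjusted p 5.62e-05). The test is limma on log2(RPKM + 1) with the 10 libraries of an assay in one fit, and p-values are Benjamini-Hochberg adjusted over the 4805 genes with a mean of at least 10 RPKM of RNA, a filter that Il6, Il12b and Il27 passed through their later time points. Of all genes tested, 7.72% were called higher at 1 h, with a median log2 change of -0.15. Adding 1 RPKM shrinks the change of genes that start near 0. From the summed reads of both libraries, the RNA of Il12b was 34.7 times that at 0 h (95% interval of the reads 19.6 to 67.6), that of Il6 7.07 times (4.02 to 13.4), that of Il27 4 times (2.6 to 6.34) and that of Ebi3 2.36 times (2.05 to 2.71).

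In the RPFs at 1 h, only Il12b was called higher, where 2.94% of the 5277 genes tested were. Its RPFs were 21.8 and 27.5 RPKM, from 37 and 47 reads, and the log2 change was 3.81 ± 0.22 with a limma adjusted p of 1.85e-06. The other 3 genes gave unequal replicates at 1 h. Il6 had 24 RPKM in replicate A from 20 reads and 1.19 RPKM in replicate B from 1 read, on either side of its 0 h values, and the ratio of B to A was 0.0497 with a counting interval of 0.0012 to 0.311. Il27 had 1.69 and 10.9 RPKM from 2 and 13 reads, with a ratio of B to A of 6.46 (1.46 to 58.9). Ebi3 had 67.6 and 145 RPKM from 78 and 168 reads, with a ratio of B to A of 2.14 (1.63 to 2.84).

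These 3 intervals leave out 1, so the replicates differed by more than the counting of reads, in opposite directions for Il6 and for the other genes. The RNA of the same cultures differed less, with ratios of B to A of 0.85 (0.561 to 1.3) for Il6, 0.7 (0.472 to 1.04) for Il27 and 1.11 (0.944 to 1.3) for Ebi3. The log2 change of RPFs from 0 to 1 h was -0.46 ± 0.84 for Il6 (adjusted p 0.823), 1.21 ± 0.55 for Il27 (adjusted p 0.341) and 0.52 ± 0.30 for Ebi3 (adjusted p 0.436) by limma. Without 1 h replicate A all 3 were called, at -2.21 for Il6, 2.28 for Il27 and 1.06 for Ebi3 (adjusted p 0.00314, 0.000885 and 0.00824), so the direction of Il6 and the calls of the other genes rest on 1 library, and the remaining 1 h library is assumed to vary like those of the other time points.

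**Figure D2:**
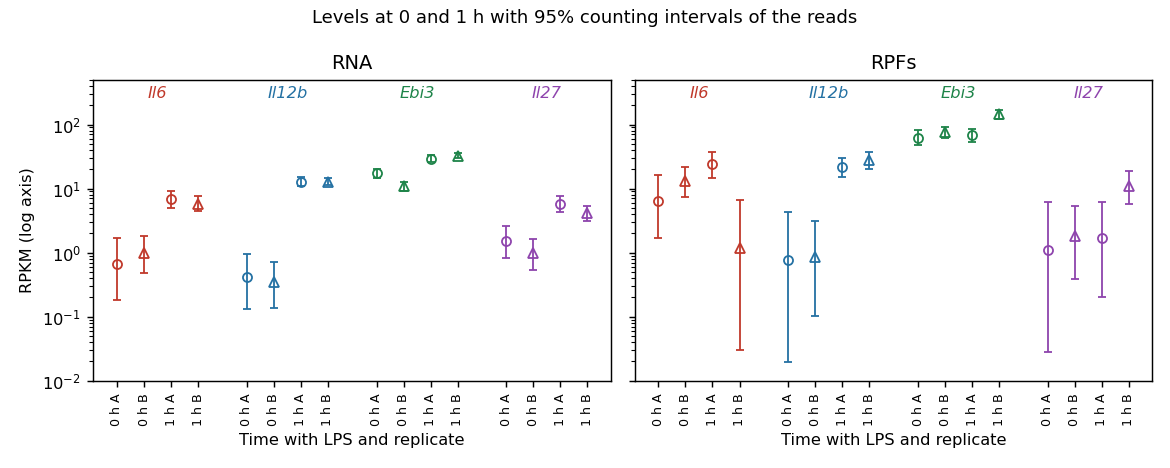
RNA and RPF levels (RPKM, log axis) at 0 and 1 h by library, with exact Poisson intervals at 95% of the reads as bars. Il6 RPFs at 1 h are 24 RPKM from 20 reads in replicate A and 1.19 RPKM from 1 read in replicate B, and the 2 bars do not overlap.

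By summed reads, Il6 and Il27 RNA rose more from 1 to 2 h than in the first hour, by 16.6 times (13.5 to 20.5) and 33.2 times (27.4 to 40.5), whereas Il12b RNA rose less than before, by 12.4 times (11.2 to 13.7). All 4 genes rose from 1 to 2 h in RNA, as 12.2% of the genes tested did, and Il27 had the largest RNA change of all 4805 genes, followed by Il6 at place 6 and Il12b at place 11. Il27 went to 148 and 165 RPKM, 4.74 ± 0.15 on the log2 scale. Il6 went to 100 and 105 RPKM (3.82 ± 0.12) and Il12b to 144 and 170 RPKM (3.51 ± 0.11), each with a limma adjusted p of 5.15e-12, as for Il27. Ebi3 changed least, to 73.1 and 74.4 RPKM (1.23 ± 0.15, adjusted p 1.46e-05).

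RPFs of all 4 genes were also called higher at 2 h than at 1 h, against 2.98% of the genes tested. Il27 had 197 and 247 RPKM and again ranked first of all genes (5.29 ± 0.55, limma adjusted p 0.000496). Il6 ranked second, at 231 and 189 RPKM (4.82 ± 0.84, adjusted p 0.00971). Il12b had 394 and 477 RPKM (4.09 ± 0.22, adjusted p 1.3e-05) and was at place 5. Ebi3 had 240 and 290 RPKM (1.41 ± 0.30, adjusted p 0.0259). Over the alternative fits the log2 change was 3.07 to 6.58 for Il6, 4.22 to 6.37 for Il27 and 3.89 to 4.25 for Il12b. The 1 h values of Il6 and Il27 rest on few reads, so the places of these genes are not firm. The calls of Ebi3 and Il6 are the less firm ones: without 2 h replicate A the adjusted p was 0.0737 for Ebi3 and 0.0629 for Il6, and for Ebi3 it was 0.128 without 2 h replicate B and 0.0548 and 0.0545 without either 4 h library.

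At 4 h the genes parted. Il6 and Il27 rose on to their peak, whereas Il12b and Ebi3 moved by smaller steps. All 4 were called higher in RNA than at 2 h, as were 23.2% of the genes tested. Il6 RNA went to 773 and 845 RPKM (2.97 ± 0.12, limma adjusted p 1.73e-11), above 99.0% of the genes in each library, at places 66 and 62 from the top. Il27 RNA went to 662 and 638 RPKM (2.05 ± 0.15, adjusted p 1.49e-08). Ebi3 went to 156 and 158 RPKM (1.08 ± 0.15, adjusted p 2.02e-05) and Il12b to 248 and 279 RPKM (0.75 ± 0.11, adjusted p 3.92e-05).

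In the RPFs, 2 of the 4 genes were called higher at 4 h than at 2 h, beside 8% of the genes tested. Il6 had 2229 and 2468 RPKM from 3818 and 2418 reads (3.48 ± 0.84, limma adjusted p 0.02), places 47 and 41 of all genes. Il27 had 769 and 918 RPKM (1.92 ± 0.55, adjusted p 0.0398). Ebi3, at 458 and 464 RPKM (0.80 ± 0.30, adjusted p 0.105), and Il12b, at 591 and 607 RPKM (0.47 ± 0.22, adjusted p 0.192), were not called, although in both genes the 4 h libraries lie above the 2 h libraries. The SE of Il6 and Il27 is set largely by the 1 h pair, since all time points share one spread. Neither call held without any 1 of the 2 h and 4 h libraries, with adjusted p of 0.0782 to 0.112 for Il6 and 0.108 to 0.203 for Il27, and the call of Il27 was also lost without either 0 h or either 6 h library (0.0586 to 0.0595). With both 1 h libraries left out, 3 genes were called, Ebi3 among them (adjusted p 0.00897).

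Between 4 and 6 h, Il6 and Il27 RNA fell, Il12b stayed near its level and Ebi3 was higher again. Il6 RNA was 341 and 325 RPKM at 6 h, a log2 change of -1.28 ± 0.12 with a limma adjusted p of 9.39e-07, and Il27 RNA was 376 and 309 RPKM (-0.93 ± 0.15, adjusted p 0.000198). Over all genes tested, 26.5% were lower and 14.5% higher in this interval, with a median change of -0.11. Il12b RNA was 233 and 236 RPKM (-0.17 ± 0.11, adjusted p 0.254). Ebi3 RNA was 222 and 211 RPKM, above both 4 h libraries (0.46 ± 0.15, adjusted p 0.0252), a call that was lost without any 1 of the 4 h and 6 h libraries (adjusted p 0.0621 to 0.102).

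RPFs showed the same split of levels at 6 h, but none of the 4 genes was called in either direction in the fit of all libraries, where 3.05% of the genes tested were lower and 1.36% higher. Il6 RPFs were 680 and 836 RPKM, both far below the 4 h libraries, with a log2 change of -1.64 ± 0.84 (limma adjusted p 0.325). Il27 RPFs were 369 and 446 RPKM, also below both 4 h libraries (-1.05 ± 0.55, adjusted p 0.337). Ebi3 RPFs were 731 and 817 RPKM, above both (0.74 ± 0.30, adjusted p 0.21). Il12b RPFs were 603 and 579 RPKM, a range that overlaps that of the 4 h libraries (-0.02 ± 0.22, adjusted p 0.97).

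The 1 h libraries decide these calls too. Without 1 h replicate A, or without 1 h replicate B, Il6 was called lower at 6 h than at 4 h (adjusted p 0.0138 and 0.0128), as were Il27 (0.0298 and 0.0338), and Ebi3 was called higher (0.0297 and 0.032), with the same log2 changes. The recovered reads, fitted with limma and voom weights, gave -1.56 ± 0.17 for Il6 (adjusted p 2.82e-07), -0.96 ± 0.18 for Il27 (0.000596) and 0.78 ± 0.18 for Ebi3 (0.00396). From the summed reads, Il6 RPFs at 6 h were 0.349 of those at 4 h (counting interval 0.328 to 0.371), Il27 0.526 (0.488 to 0.565), Il12b 0.977 (0.922 to 1.03) and Ebi3 1.74 (1.63 to 1.86).

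**Figure D3:**
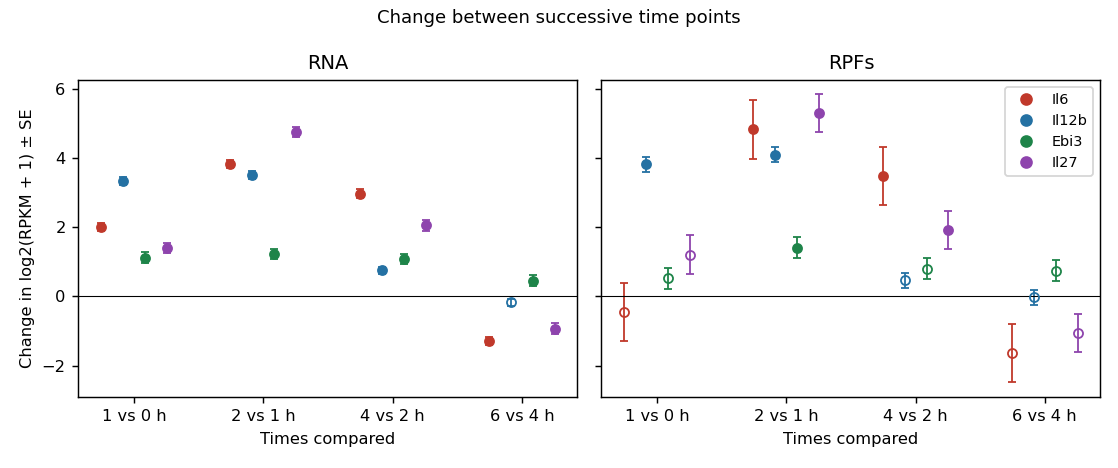
Change in log2(RPKM + 1) between successive time points for RNA and RPFs, with SE bars of limma, each time point with 2 libraries. Filled points have an adjusted p under 0.05. All 4 genes are filled in RNA up to 4 h, and the open RPF points of Il6 at 1 h and 6 h carry an SE of 0.84.

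Over the whole course, all 4 genes were higher than at 0 h from 2 h on in both assays, at 2, 4 and 6 h, except that the RPF call of Il6 at 2 h was lost without 0 h replicate A or 2 h replicate A (limma adjusted p 0.0861 and 0.0612). Of the genes tested, 15.7%, 24.3% and 26.1% were called higher in RNA at these times and 5.65%, 11.7% and 12.8% in RPFs. At the 4 h peak, Il6 RNA was 922 times the 0 h level by summed reads, with a counting interval of 550 to 1688 that comes mainly from 14 reads at 0 h. Il12b RNA was 715 times (409 to 1384), Il27 RNA 546 times (375 to 829) and Ebi3 RNA 11.8 times (10.5 to 13.3). Ebi3 went on to 16.3 times (14.5 to 18.4) at 6 h. The ranges of Il6, Il12b and Il27 overlap, so their order is not resolved at this depth, and all lie above that of Ebi3.

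For RPFs at 4 h, the ranges of Il6, Il12b and Il27 overlap again, so their order is not resolved either. Il12b was 720 times its 0 h level, but that rests on 3 reads at 0 h and the interval is 246 to 3495. Il27 was 520 times (203 to 1911) from 4 reads at 0 h, Il6 217 times (139 to 360) from 19 reads and Ebi3 6.52 times (5.57 to 7.66) from 174 reads. The Il6 interval for RPFs lies below its interval for RNA, 550 to 1688, which restates its high apparent TE at 0 h.

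Once induced, the 4 mRNAs differed in apparent TE, with Ebi3 at the top, nearly level with Il6 at 4 h, and Il27 at the bottom. In the 6 cultures at 2, 4 and 6 h, Ebi3 had the highest TE of the 4, from 2.94 to 3.9, above 92.8% to 97.6% of the 4621 genes with a mean of at least 10 RPKM in both assays. Il27 had the lowest, from 0.982 to 1.49, above 25.8% to 52.6% of genes. Il12b lay at 2.17 to 2.81 and Il6 at 1.81 to 2.92. Il27 was lower than each of the other 3 genes in 6 of 6 cultures. Ebi3 was higher than each of the others in 6 of 6. At 4 h, the counting intervals of Ebi3 and Il6 overlap, at 2.74 to 3.16 and 2.78 to 2.99 in replicate A. In replicate B they are 2.69 to 3.21 and 2.79 to 3.05. Intervals also overlap for Ebi3 and Il12b in 2 h replicate A and for Il27 and Il6 in 2 h replicate B. Il6 was lower than Il12b in 3 of 6 cultures, the 2 h cultures and 6 h replicate A. It was higher in both 4 h cultures and in 6 h replicate B, so these 2 kept no single order. The median TE over all genes was 1.4 to 1.59 in these cultures. This order is a description, since genes are not replicates, and TE is relative to the depth of each library.

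By culture, Il6 TE was 2.3 and 1.81 at 2 h, then 2.88 and 2.92 at 4 h, then 2 and 2.57 at 6 h. Il12b TE was 2.74 and 2.81, then 2.38 and 2.17, then 2.59 and 2.46. Ebi3 TE was 3.29 and 3.9, then 2.95 and 2.94, then 3.3 and 3.87. Il27 TE was 1.33 and 1.49, then 1.16 and 1.44, then 0.982 and 1.44. For Il6, both 4 h cultures lie above those at 2 and 6 h, and for Il12b and Ebi3 both 4 h cultures lie below them.

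None of these shifts passed the test. No gene of the 4621 was called for TE between 2 and 4 h, 4 and 6 h or 2 and 6 h by limma (0% in each comparison, with 190, 144 and 384 genes at an unadjusted p under 0.05), nor in one model over both assays. On the recovered reads, limma with voom weights called 0, 2 and 0 genes, none of them among the 4. From 2 to 4 h the log2 change in TE was 0.51 ± 0.85 for Il6, -0.28 ± 0.21 for Il12b, -0.27 ± 0.36 for Ebi3 and -0.12 ± 0.71 for Il27, with adjusted p of 0.997. From 4 to 6 h it was -0.36 ± 0.85, 0.15 ± 0.21, 0.28 ± 0.36 and -0.12 ± 0.71 for these genes in the same order, with adjusted p of 1. From 2 to 6 h it lay between -0.24 for Il27 and 0.16 for Il6. An SE of 0.85 on the log2 scale leaves room for large changes in TE of Il6 that this test could not call. All time points share one spread, which includes the Il6 TE of 3.51 and 0.205 at 1 h. A fit without both 1 h libraries also called 0 of the 4621 genes in these comparisons.

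At 0 and 1 h the apparent TE rests on few reads and was not tested. Il6 TE at 0 h was 9.45 and 13.1, above 99.8% and 99.9% of genes, from 4 RPF and 4 RNA reads in replicate A and from 15 and 10 in replicate B. From the summed reads it was 12.2 with a counting interval of 5.79 to 26.3, which lies above the 2.03 (1.2 to 3.27) at 1 h and the 2.86 (2.78 to 2.94) at 4 h. The single cultures at 1 h gave 3.51 (1.95 to 6.12) and 0.205 (0.00511 to 1.19). Ebi3 TE at 0 h was 3.64 and 6.92, with 5.33 (4.4 to 6.46) from the summed reads, and 2.3 and 4.46 at 1 h. Il12b TE at 0 h, 2.25 from the summed reads, has an interval of 0.407 to 8.32, and that of Il27, 1.33, one of 0.338 to 3.82, so no departure from the later values was detectable at this depth.

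**Figure D4:**
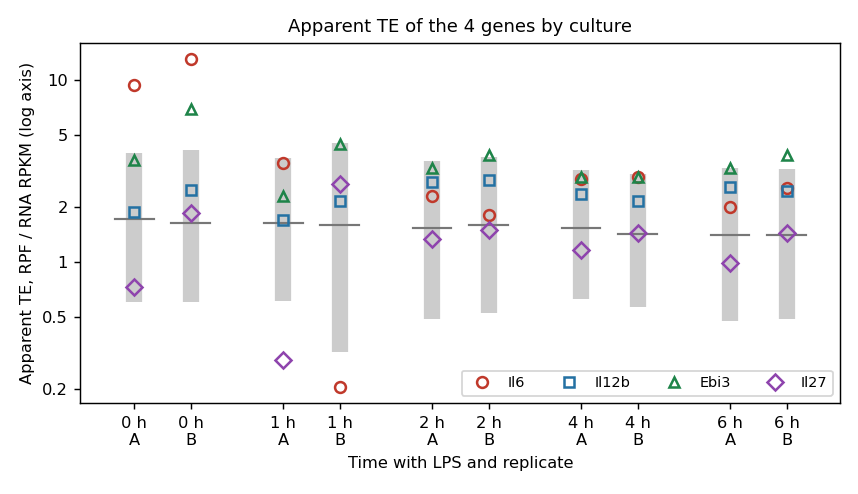
Apparent TE (RPF over RNA RPKM, log axis) of the 4 genes in each of the 10 cultures. Grey bars span the 5th to 95th percentile of 4621 genes and grey lines are the medians. From 2 h on Ebi3 is the highest and Il27 the lowest of the 4 in every culture, with Il6 nearly level with Ebi3 at 4 h. Il6 lies above the bars at 0 h.

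IL-27 needs both Ebi3 and Il27, and the balance of these transcripts turned over during the response. At 0 h, Ebi3 RNA was 11.3 and 11 times Il27 RNA per length, and Ebi3 RPFs were 56.5 and 40.7 times Il27 RPFs. These RPF ratios rest on 1 and 3 reads of Il27, so their size is not resolved at this depth. By 2 h the ratio of Il27 to Ebi3 was 2.03 and 2.22 for RNA, in favour of Il27, but 0.821 and 0.85 for RPFs. At 4 h it reached 4.25 and 4.04 for RNA and 1.68 and 1.98 for RPFs. At 6 h it was 1.7 and 1.46 for RNA and 0.505 and 0.546 for RPFs.

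Il27 thus exceeded Ebi3 in RNA in all 6 cultures from 2 h on, whereas in RPFs it did so in the 4 h cultures only and Ebi3 was 1.98 and 1.83 times Il27 at 6 h. The gap between both ratios equals the difference in TE between the genes. Ratios per length compare ribosome density and say nothing of the secreted protein.

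**Figure D5:**
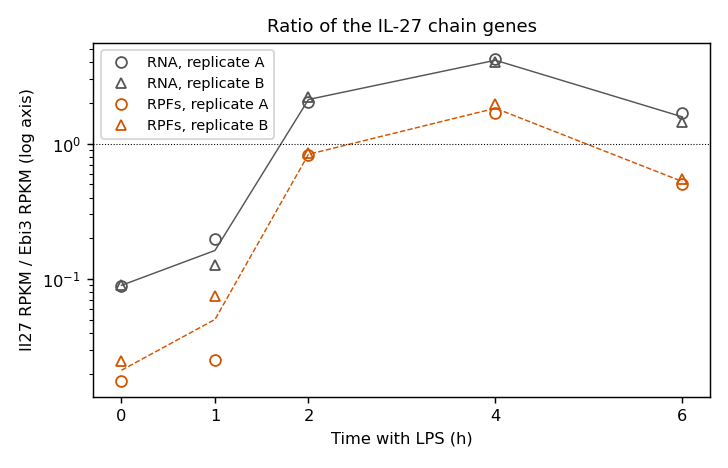
Ratio of Il27 to Ebi3 RPKM (log axis) against hours with LPS, for RNA and RPFs by replicate, with lines through the means and a dotted line at equal levels. The RNA ratio is above 1 from 2 h on, and the RPF ratio is above 1 at 4 h only, at 1.68 and 1.98.

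The levels of Il6 carry a further limit. Its reads came out whole for a length of 490 bases, which belongs to the 498-base coding sequence of the mRNA NM_001314054 less the stop codon and 1 base per exon, and not for the 628 bases that the 636-base coding sequence of NM_031168 would give. If the reads are those of the longer coding sequence, all Il6 RPKM values would be 0.78 of those given here. Ratios of plain RPKM or reads and TE are the same with either length, whereas changes of log2(RPKM + 1) depend on it. The other 3 genes have 1 coding length each, with 998 bases for Il12b, 679 for Ebi3 and 697 for Il27 behind their values.

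The genes most like each member were named by the smaller of Pearson's r over the 10 RNA-seq and over the 10 Ribo-seq libraries of log2(RPKM + 1), as a description over libraries that share time points. Il6 was closest to Oasl1, Gramd1a, Mtdh, Ifih1 and Fgl2, with a smaller r of 0.98 to 0.96. Oasl1 and Ifih1, the RNA sensor MDA5, are known from the interferon response. All 5 share with Il6 a lower RPF level in replicate B than in A at 1 h, which for Il6 rests on 1 read in B. None of the 5 fell in RNA from 4 to 6 h as Il6 did. Ifih1 had 349 and 418, then 316 and 348 RPKM, and Fgl2 551 and 514, then 610 and 590 RPKM. Il12b was closest to Cxcl10, a chemokine, Acod1, the enzyme that makes itaconate, Trex1 and Tnfrsf1b, at 0.99 to 0.98. Ebi3 was closest to Slc7a2, an arginine transporter, Slc11a2, Il2rg, Lacc1 and the complement component C3, each at 0.98. Il27 was closest to Rassf4, Gbp5, Ch25h, Arhgef3 and Parp14, at 0.99 to 0.98. The genes named for Ebi3 and for Il27 all share with them a higher RPF level in replicate B than in A at 1 h. For Il27 that difference rests on 2 and 13 reads.

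The genes named above were picked for the highest smaller r, so a lower value among the 4 genes follows from that choice. Ranked by the smaller r over the genes compared, Il12b and Il27 were each at place 32 for the other, the closest pair of the 4 genes. The furthest place was 243, that of Il6 for Ebi3. The smaller r was 0.95 for Il12b with Il27, 0.94 for Ebi3 with Il27, 0.91 for Il6 with Il27, 0.90 for Il12b with Ebi3, and 0.84 for Il6 with Il12b and with Ebi3. In each pair the smaller value came from the RPFs, and the RNA values were 0.95 to 0.99. The RPF values include the 1 h libraries, where Il6 had 24 RPKM in replicate A and 1.19 RPKM from 1 read in replicate B. The other genes were higher in replicate B there. How far this lowers the r of Il6, and so its places, was not tested.

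Of the receptor chains, Il6st alone was called, and it fell. Of 10 receptor chains of both families, Il6ra and Il6st were in the table. Il6st, the signalling chain gp130, had 23.5 and 27.6 RPKM of RNA at 0 h and 6.33 in both libraries at 6 h (log2 change -1.85 ± 0.12, limma adjusted p 8.97e-10), where 54.9% of the genes tested fell. Its RPFs fell by 2.13 ± 0.44 on the log2 scale (adjusted p 0.00329), where 36% of the genes tested fell. Il6ra, the ligand-binding chain, was under the filter in RNA, with 12.1 and 10.8 RPKM at 0 h and 8.03 and 6.69 at 6 h, and its RPFs changed by -0.94 ± 0.37 (adjusted p 0.057).

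Of 9 JAK and STAT genes tested, 8 rose and 1 fell in RNA at 6 h against 0 h, with a median log2 change of 2.44, where 26.1% of all genes tested rose and 54.9% fell with a median of -0.41. Jak2 rose by 3.68 ± 0.11, Stat2 by 3.34 ± 0.14 and Stat3, the main factor through which IL-6 acts, by 2.97 ± 0.12. In RPFs 7 of 9 rose and 1 fell, beside 12.8% and 36% of all genes. At 1 h, 1 of the 9 was higher and 2 lower in RNA, beside 7.72% and 9.12% of all genes. Of 7 inhibitors of JAK-STAT signalling tested, 3 rose and 2 fell in RNA at 6 h, beside the same 26.1% and 54.9% of all genes. Socs3, which blocks signalling through gp130, rose by 7.4 ± 0.16 on the log2 scale and had 266 and 317 RPKM of RNA as early as 1 h, from 2.67 and 1.53 at 0 h. The phosphatases Ptpn1 and Ptpn6 rose by 1.84 ± 0.11 and 0.75 ± 0.12, and Pias2 fell by 1.39 ± 0.13.

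Of 19 transcription factors and cofactors known at these genes, 11 were higher and 1 lower in RNA at 1 h, and 15 were higher and 3 lower at 6 h, with median changes of 0.63 and 1.59. Of all genes tested, 7.72% were higher and 9.12% lower at 1 h, and 26.1% and 54.9% at 6 h. The 3 genes of the list that were lower at 6 h were Fos, Jun and Irf3. At 6 h the largest changes were those of Nfkbiz, the nuclear protein IkB-zeta needed for Il6 and Il12b transcription, at 3.83 ± 0.12, Nfkb2 at 3.33 ± 0.11, Cebpb at 3.16 ± 0.20 and Irf1 at 2.86 ± 0.12. Of 11 genes for proteins that bind or act on cytokine mRNAs, 2 rose and 6 fell at 6 h, a share of falling genes near the 54.9% of all genes. Zc3h12a, the RNase Regnase-1 that cleaves Il6 and Il12b mRNA, rose by 3.05 ± 0.12, and Zfp36 by 2.63 ± 0.14. Zfp36l2 and Zfp36l1, relatives of Zfp36, fell by 3.92 ± 0.17 and 3.48 ± 0.19. All adjusted p of the genes named here from these lists were under 0.05 by limma.

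Zfp36 (TTP) binds AU-rich elements in the 3′ untranslated regions of cytokine mRNAs. Of the 4 genes, Il6 alone is among the 280 mRNAs with a deposited CLIP-seq peak, and 133 of the 280 are in the table of RPKM values. The Il6 peak lies at chr5:30019651-30019750 of mm10, on the plus strand in the last exon, exon 5, 103 to 202 bases into the 427-base 3′ untranslated region of NM_031168. Its fold over the input is 6.93 with a deposited p of 4.95e-282, and 238 of the 280 peaks have a higher fold, in a range of 2.82 to 235.52. The peak holds 1 TATTTAT and 4 ATTTA. The last 30 bases of the peak, chr5:30019721-30019750, are printed because they hold the 1 TATTTAT of the region, in capitals.
Il6 site: aagttaatttatgattgaTATTTATtattt

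Of 279 peaks whose strand was known, 10.4% held TATTTAT, and 4 of the 12 peaks of 100 bases did. Tnf, the cytokine whose mRNA is the best known target of Zfp36, had a peak of 1000 bases with a fold of 13.06 and 8 TATTTAT, and Zfp36 itself one of 100 bases with a fold of 5.37 and no TATTTAT. Peaks were called on both CLIP-seq libraries over 1 input, so replicates cannot be compared.

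TATTTAT also occurs in the mRNAs of Il27 and Il12b, which have no listed peak, and not in that of Ebi3. The 3′ untranslated region of Il27, 286 bases at chr7:126589009-126589294 on the minus strand, holds 4 TATTTAT and 5 ATTTA. That of Il12b, 1441 bases at chr11:44413237-44414677, holds 1 and 6, and that of Ebi3, 245 bases at chr17:55956778-55957022, 0 and 1. Over 6208 genes of the table with a RefSeq 3′ untranslated region, of a median length of 1036 bases, 28.4% held TATTTAT and 67.6% ATTTA. The counts are of letters on the transcribed strand, overlapping matches included, and a TATTTAT always contains an ATTTA.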

How the data were processed

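RNA-seq and Ribo-seq of BMDMs and CLIP-seq of Zfp36-V5 were analysed from the deposited tables. After trimming with FASTX-Toolkit, the authors removed rRNA, tRNA and mitochondrial reads with Bowtie, mapped to mm10 with TopHat, counted with HTSeq and deposited RPKM per gene and library. The methods state a filter of 10 RPKM at all stages, and the discussion of the paper ties this threshold to the search for differentially translated mRNAs. The values used here are those listed for all mRNAs, without that filter. Of these 6397 genes, 3519 (55%) are under 10 RPKM in at least 1 library. For CLIP-seq the authors mapped with STAR, called peaks with Piranha and merged them with HOMER, and deposited a p-value, a fold over the input and a position per peak.

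Only genes whose mean over an assay reached 10 RPKM (for TE, over each assay) were tested. Changes were tested with limma 3.58.1 (mean-variance trend, 5 residual degrees of freedom) in R 4.3.3 on log2(RPKM + 1), with 7 comparisons each for RNA and RPFs and 3 for TE, Benjamini-Hochberg adjusted per comparison over all genes tested, at 0.05. Fits were also run on simulated data with independent normal noise. Such data cannot show how the fits handle deviations shared by libraries of the same replicate letter, so no conclusion is drawn from them. Reads were recovered as RPKM times coding length times depth for 95.4% of genes. RPKM are shares of a library, so a change is relative to the other genes. Coordinates and sequences are from RefSeq on GRCm38 (mm10). Python 3.11.15 with scipy 1.17.1 and pysam 0.24.0 did the rest.

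The 4 genes were described in full, with values for at most 4 genes per list (the largest RNA changes at 6 h past the threshold) and the 5 most alike per gene, of which some are not reported here. The genes and lists were chosen with earlier results of these data known. Alternatives were added values of 0.1 and 5 RPKM, no filter, 10 RPKM in every library, median centring, a replicate block, no trend, each library left out, one model for TE and peaks with a fold of at least 5. Chosen after seeing the data were voom on the recovered reads and fits without both 1 h libraries, or without 1 h B and 6 h A.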

Additional observations from a re-analysis of the deposited data

How the results depend on the processing

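Under the alternatives, 403 counts of called genes stayed within 1.5 times, 29 went down and 11 went up. The 403 include the TE counts, which were 0 of the 4 genes under every setting, and a drop from 4 genes to 3 is within 1.5 times. No change of a gene reversed its direction where either fit called it. Requiring 10 RPKM in every library left Ebi3 alone among the genes tested, so that 1 gene was called higher in RNA at 1, 2, 4 and 6 h against 0 h, at 2 h against 1 h and at 4 h against 2 h, and 0 lower at 6 h against 4 h. In RPFs it left 1 gene higher at 2, 4 and 6 h against 0 h and at 2 h against 1 h, and 0 at 1 h against 0 h and at 4 h against 2 h. Adding 0.1 RPKM, or no mean-variance trend, left 1 gene called higher in RPFs at 4 h against 2 h, and voom on the recovered reads called 4. At 6 h against 4 h, voom called 1 gene higher and 2 lower in RPFs, as did a fit without both 1 h libraries, and a fit without 1 h B and 6 h A called 1 lower in RPFs and 0 higher in RNA.

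Leaving out each library in turn gave 0 to 1 genes higher in RNA at 6 h against 4 h, 1 to 3 in RPFs at 1 h against 0 h, 3 to 4 at 2 h against 0 h, 2 to 4 at 2 h against 1 h and 0 to 3 at 4 h against 2 h. In RPFs at 6 h against 4 h it gave 0 to 1 higher and 0 to 2 lower. The cause was not tested.

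Replicate letters are shared across times. The deviations of same-lettered libraries correlated at 0.09 to 0.54 over the 10 pairs of time points in RNA, all positive and 9 of them over 0.1, and at -0.02 to 0.02 in RPFs. The RNA values hint at a shared source of same-lettered libraries, but not every pair was over 0.1 in either assay, so the fits have no block. A replicate block changed no call of the 4 genes, and moved the genes called at 6 h against 4 h in RNA to 800 higher and 1520 lower, from 695 and 1272. Of the gene lists, median centring raised the JAK-STAT inhibitors called higher in RNA at 6 h from 3 to 5, and no filter the receptor chains called lower from 1 to 2. With 551831 reads, 6 h replicate A limits the RPF values at 6 h.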
